A study of Homo sapiens with 5 samples.

Results

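SLC7A11 and SLC3A2 encode the light and the heavy chain of system xc-, the cystine transporter. They are described here over 5 ribosome profiling libraries of A549, a long-established line from a human lung adenocarcinoma, in which the RNA-binding protein RBMS1 was stably depleted or overexpressed. The members are the 2 rows, of 58929 genes in each library, whose symbol is SLC7A11 (ENSG00000151012.13) or SLC3A2 (ENSG00000168003.16). RBMS1 knockdown has 2 libraries, sh1088 and sh1196, each named for its own short hairpin, and is set against 1 sh control library. RBMS1 overexpression, named R1A, has 1 library and is set against 1 pCDH control library. All 5 were grown in F12K medium with serum. Cycloheximide, which stalls ribosomes in place, was given at 100 µg/mL for 15 min, RNase I digestion took 5 min, and particles with a single ribosome were collected. The sources do not say whether the lines are clones or how many cultures were used. The p-values thus speak only of the spread among the libraries, which may be technical in part. In knockdown this spread lies between 2 different hairpins, so hairpin differences and technical ones cannot be told apart.

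SLC7A11, also called xCT, is the chain that does the transport: it brings cystine into the cell in exchange for glutamate. SLC3A2, also called 4F2hc or CD98 heavy chain, crosses the membrane once, is joined to the light chain by a disulfide bond and carries it to the cell surface, as it does for several other amino acid transporters. Imported cystine is reduced to cysteine, which feeds glutathione synthesis and, through GPX4, the detoxification of lipid peroxides that limits ferroptosis. A549 cells carry a loss-of-function change in KEAP1, the inhibitor of the transcription factor NRF2, and SLC7A11 is a known target of NRF2 and of ATF4. The study asked whether RBMS1 bears on translation of SLC7A11. The counts used here are of fragments from ribosome fractions, by the study's design text, although the sample labels also describe a total RNA input, and the mRNA level was not analysed here, so more mRNA and more ribosomes per mRNA cannot be told apart, nor can a change in some cells and a change in all.

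SLC7A11 lies on chromosome 4 at 138164097 to 138242349 on the minus strand, and SLC3A2 on chromosome 11 at 62856102 to 62888875 on the plus strand (GRCh38, GENCODE release 29). The files list 2 transcripts of SLC7A11, with the same versioned identifiers as that release. The long transcript (ENST00000280612.9) has 9645 nt in 12 exons, of which 1503 nt code for the protein and 7859 nt follow the stop codon. The short transcript (ENST00000509248.1) has 797 nt in 7 exons, is annotated as a target of nonsense-mediated decay, and has 0 bases that lie outside the exons of the long transcript. It skips an exon of 124 nt (138185121 to 138185244) and a further one of 97 nt (138182297 to 138182393). The 124 nt leave a remainder of 1 on division by 3, and the reading frame of the short transcript ends 37 bases after the junction. The sequence around this junction is shown because it separates the transcripts on which the values per length turn. Both stretches are on the minus strand, 67 bases 5′ to 3′, with the last 30 bases of the shared exon (138214585 to 138214614) in lower case and the 37 bases after the junction in capitals. The last 3 capitals of the short transcript are its stop codon.
SLC7A11 long transcript: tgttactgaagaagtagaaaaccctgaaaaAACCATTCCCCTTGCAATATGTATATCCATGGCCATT
SLC7A11 short transcript: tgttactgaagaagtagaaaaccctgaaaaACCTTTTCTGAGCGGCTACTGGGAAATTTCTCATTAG

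The libraries held between 10327747 and 13980843 expected counts. Nuclear protein-coding genes took 42.2% of them in sh1088 and 66.0% in sh1196, against 37.7% in the sh control, and 62.3% in the overexpression library against 66.3% in the pCDH control. Levels below are TMM-scaled CPM (the count over the library total, rescaled so that the bulk of genes is level between libraries), with 95% Poisson intervals that cover counting error only. RBMS1 itself stood at 18.2 CPM in sh1088 and 13.5 CPM in sh1196, against 30.6 CPM in the sh control. It stood at 37.2 CPM in the overexpression library, against 24.8 CPM in the pCDH control. By scaled counts RBMS1 was thus on the labelled side of its control in every library, but its knockdown difference did not pass the test (log2 fold change -0.93, SE 0.45, edgeR adjusted p = 0.828). By FPKM it was on the other side in knockdown, at 8.43 in sh1088 and 8.56 in sh1196, against 5.22 in the sh control, and on the labelled side in overexpression, at 23.37 against 14.85 in the pCDH control. The log2 ratio of RBMS1 counts in overexpression was 0.58, where the trend of genes with its GC content stood at 0.51. Less this trend, which is described below for the chains, RBMS1 stood at 0.075 in overexpression and at -0.94 in knockdown. Of 10 markers of A549 and epithelial cells, all 10 were tested and 0 passed in knockdown (edgeR), with a summed level of 10576 CPM in sh1088 and 8553 CPM in sh1196, against 11633 CPM in the sh control, and 14525 CPM in overexpression against 6970.0 CPM in the pCDH control. Of these markers 9 were below 0 in knockdown (median log2 fold change -0.38), but only 5 were lower in both hairpins. Among genes with a mean of at least 5 CPM, 34.2% were lower in both. In overexpression 4 markers were past 2-fold higher (median 0.83, with 14.8% of all genes past 2-fold higher). Both medians were on the sides of SLC7A11, and the markers' part in its difference was not tested. The immune markers PTPRC and CD3E and the alveolar marker NKX2-1 were at 0 counts in all 5 libraries, while the monocyte marker CD14 lay between 6.76 and 20.9 CPM. The summed level of 4 fibroblast markers was at most 9.84 CPM.

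SLC7A11, the light chain, had 3681 expected counts in sh1088 and 3639 in sh1196, against 6325 in the sh control. After scaling this was 381 CPM (368 to 393) in sh1088 and 284 CPM (275 to 294) in sh1196, against 778 CPM (759 to 797) in the sh control. The knockdown libraries averaged 332 ± 68.2 CPM (SD, n = 2), and both lay below the control. The overexpression library had 5857 counts and 497 CPM (484 to 509.8) of SLC7A11, against 5420 counts and 312 CPM (304 to 320.4) in the pCDH control. In the order of levels the sh control was highest, then overexpression, sh1088, the pCDH control and sh1196, and no neighbouring counting intervals overlapped.

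SLC3A2, the heavy chain, was ordered nearly the other way round. It had 7448 counts in sh1088 and 15879 in sh1196, against 3746 in the sh control. After scaling it stood at 770.2 CPM (753 to 788) in sh1088 and 1239.9 CPM (1221 to 1259) in sh1196, against 461 CPM (446 to 476) in the sh control. The knockdown libraries averaged 1005 ± 332 CPM (SD, n = 2), and both lay above the control. The overexpression library had 7613 counts and 646 CPM (631 to 661) of SLC3A2, against 22680 counts and 1306 CPM (1289 to 1323) in the pCDH control. The sh control was lowest, followed by overexpression, sh1088, sh1196 and the pCDH control, again with no overlap of neighbouring intervals.

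**Figure D1:**
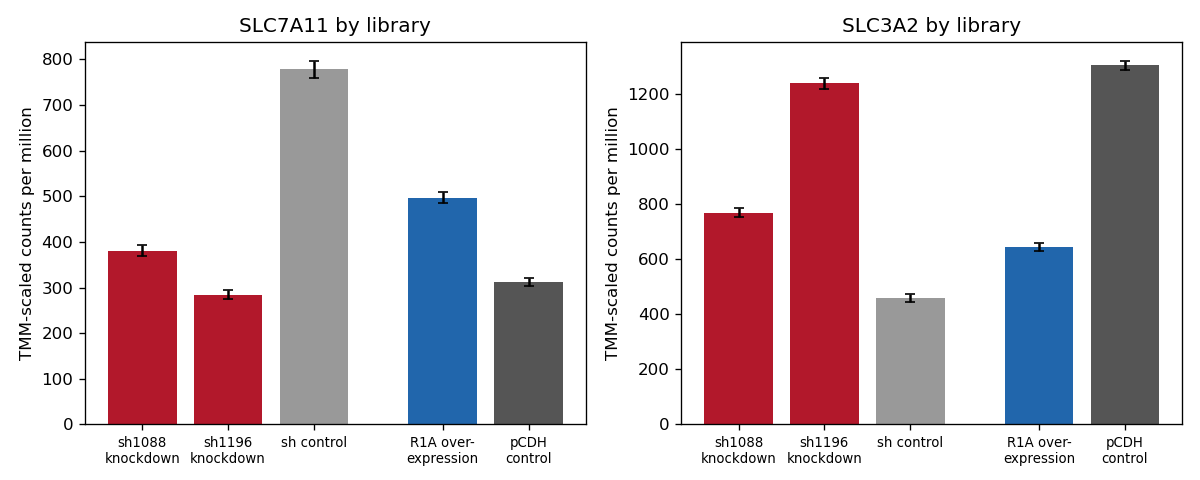
Level of each chain by library, in TMM-scaled CPM, with bars from 0 and error bars for the 95% Poisson interval of the count, 1 library a bar. SLC7A11 is highest in the sh control (778) and SLC3A2 in the pCDH control (1306), and the knockdown libraries lie below the sh control for SLC7A11 and above it for SLC3A2.

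Neither chain passed the test for knockdown. For SLC7A11 the edgeR quasi-likelihood test gave a log2 fold change of -1.21 (SE 0.54, Benjamini-Hochberg adjusted p = 0.828, unadjusted p = 0.0561), with -0.995 in sh1088 and -1.43 in sh1196, lower in 2 of 2 libraries. SLC3A2 had 1.14 (SE 0.65, edgeR adjusted p = 0.828, unadjusted p = 0.117), with 0.78 in sh1088 and 1.46 in sh1196, higher in 2 of 2 libraries. In this fit 0 of 14913 genes passed (0%), with 876 (5.87%) at an unadjusted p under 0.05. DESeq2 called 13 genes and limma-voom called 0. The fit has 1 residual degree of freedom and assumes that the lone control varies like the knockdown pair. Among the genes tested, 5.81% had a lower fold change than SLC7A11, and 89.7% a lower one than SLC3A2, where the median of all genes was 0.07. In the authors' deposited table, which has the columns of DESeq2, the log2 fold change was -1.22 for SLC7A11 (adjusted p = 0.00360) and 1.13 for SLC3A2 (adjusted p = 0.0173), with 539 of 15560 genes under an adjusted p of 0.05. DESeq2 run on the same counts with its defaults gave nearly the same log2 values, -1.22 and 1.13, with unadjusted p = 0.0181 and 0.0356 and adjusted p = 1.00 for both chains. None of the sources used here gives the settings behind the authors' p-values.

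For overexpression the log2 ratio to the pCDH control was 0.67 for SLC7A11 (95% counting interval 0.62 to 0.72) and -1.02 for SLC3A2 (-1.05 to -0.98). These ratios set 1 library against 1 and have no replicate check and no p-value. SLC3A2 was 2.02-fold lower and SLC7A11 1.59-fold higher, where a 2-fold lower level or less was found for 1511 of 10839 genes with a mean of at least 5 CPM (13.9%), and a 2-fold higher level or more for 1603 (14.8%). The ratio of SLC7A11 lay above that of 74.8% of these genes, and the ratio of SLC3A2 above that of 13.6%. The authors' deposited table gives 1.03 for SLC7A11 (adjusted p = 0.00181) and -0.76 for SLC3A2 (adjusted p = 0.0150) in this arm, also from 1 library a group, with 4503 of 17714 genes under an adjusted p of 0.05. Overexpression ratios were tied to base composition: across 10337 nuclear protein-coding genes, the ratio and the GC content of the longest transcript had Spearman rho = -0.57, where the genes share the same pair of libraries. SLC7A11 has 35.4% GC and SLC3A2 57.4%. Less the trend at their GC content, SLC7A11 stood at -0.067 and SLC3A2 at -0.52. For knockdown rho was 0.10, and the values less the trend were -1.06 for SLC7A11 and 1.03 for SLC3A2.

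When all 5 libraries were fitted on an RBMS1 level of -1 for knockdown, 0 for the controls and 1 for overexpression, next to a vector term (sh or pCDH), the slope of SLC7A11 was 1.00 per level on the log2 scale (SE 0.41, edgeR unadjusted p = 0.0368, adjusted p = 0.718). The slope of SLC3A2 was -1.07 per level (SE 0.47, edgeR unadjusted p = 0.0455, adjusted p = 0.718). Neither passed. In this fit 0 of 14523 genes passed (0%), 962 (6.62%) had an unadjusted p under 0.05, and DESeq2 called 56. Without the vector term the values were 0.36 and -0.30, closer to 0 for both chains. The directions themselves were common: among 10559 genes with a mean of at least 5 CPM, 2092 (19.8%) were lower in both hairpins and higher with overexpression, as SLC7A11 was, and 1995 (18.9%) were higher in both and lower with overexpression, as SLC3A2 was. As far as SLC7A11 in all 3 ratios were 63 genes (0.597%, itself included), and as far as SLC3A2 were 80 genes (0.758%).

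The control libraries differed from each other in both chains. SLC7A11 was 2.49-fold lower in the pCDH control than in the sh control, at a log2 ratio of -1.32 (-1.37 to -1.27), which lies between the ratios of sh1088 and sh1196. SLC3A2 was 2.83-fold higher, at 1.503 (1.45 to 1.55), past the ratio of either hairpin. Set against the pCDH control, knockdown stood at 0.11 for SLC7A11 and -0.36 for SLC3A2. Set against the sh control, overexpression stood at -0.65 for SLC7A11 and 0.49 for SLC3A2. All 4 values thus changed sign with the control. The vector system and the control libraries cannot be told apart here.

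The chains can be set against each other inside a library, where depth and scaling cancel. Differences tied to base composition do not cancel, since the chains differ in GC content. In overexpression the GC trend stood at 0.74 for SLC7A11 and -0.50 for SLC3A2, and in knockdown at -0.15 and 0.09. The chain ratio less this trend was not computed, and the part of GC content in it was not tested. SLC7A11 took 33.1% of the counts of both chains (exact binomial 95% interval 32.2 to 34.0) in sh1088 and 18.6% (18.1 to 19.2) in sh1196, against 62.8% (61.9 to 63.7) in the sh control. It took 43.5% (42.6 to 44.3) in the overexpression library, against 19.3% (18.8 to 19.8) in the pCDH control. The sh control was the only library of the 5 with more counts on the light chain than on the heavy chain. On the log2 scale the ratio of SLC7A11 to SLC3A2 counts moved by -2.33 ± 0.78 (SD, n = 2) in knockdown, with -1.77 in sh1088 and -2.88 in sh1196, and by 1.69 in overexpression. A permutation of 2 libraries against 1 cannot give a p below 0.333, and no other test of this ratio was run. With the controls exchanged it stood at 0.49 in knockdown and -1.13 in overexpression.

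Per length of the whole transcript, untranslated parts included, SLC3A2 was the more abundant chain in every library. Of the long SLC7A11 transcript 15.6% is coding, against 85.2% for SLC3A2. No level per coding base was computed, so this order need not hold for ribosomes on the coding parts. By the authors' FPKM, which divides by the effective length of the gene, SLC3A2 was 10.4 times SLC7A11 in sh1088 and 11.1 times in sh1196, against 5.88 times in the sh control. It was 5.90 times SLC7A11 in the overexpression library, against 12.5 times in the pCDH control. On this scale the knockdown libraries and the pCDH control lay close together and the overexpression library matched the sh control. The log2 ratio of the chains by FPKM moved by -0.82 in sh1088, by -0.91 in sh1196 and by 1.08 in overexpression, so the direction against each library's own control was the same as by counts, at a smaller size in all 3. Ranked by TPM among nuclear protein-coding genes, SLC3A2 was between 35th and 178th in the 5 libraries, and SLC7A11 between 1126th and 1963rd. Ranked by count, which favours long transcripts, SLC7A11 was between 55th and 241st.

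**Figure D2:**
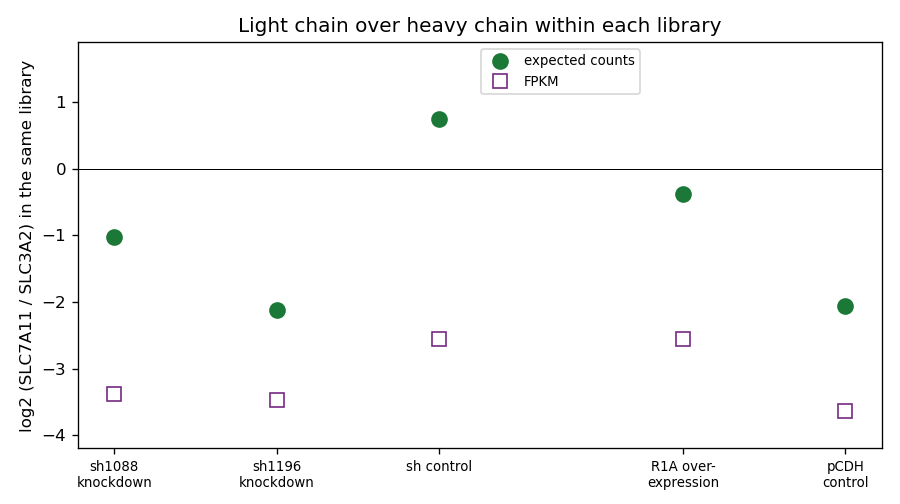
Log2 ratio of SLC7A11 to SLC3A2 within each library, by expected counts (filled circles) and by FPKM (open squares), 1 library a point. Both measures are lower in the knockdown libraries than in the sh control and higher in overexpression than in the pCDH control, while by FPKM overexpression (-2.56) and the sh control (-2.56) stand level.

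Levels of SLC7A11 per length went against its counts in sh1196 and in overexpression. Its TPM was 17.5 in sh1088 and 46.3 in sh1196, against 17.49 in the sh control, and 40.75 in the overexpression library against 80.5 in the pCDH control. Its FPKM was 39.9 in sh1088 and 94.3 in sh1196, against 57.4 in the sh control, and 75.8 in the overexpression library against 103.4 in the pCDH control. The length that RSEM, the authors' counting tool, gave the gene differed between libraries: 7902 nt in sh1088 and 3784 nt in sh1196, against 9531 nt in the sh control, and 7417 nt in the overexpression library against 3801 nt in the pCDH control. This length is the mean over transcripts, weighted by their estimated abundance. In sh1196 against the sh control the log2 count ratio was -0.80, the log2 effective length ratio -1.34 and the log2 ratio of totals -0.17, which together give the FPKM ratio of 0.72. In overexpression against the pCDH control the count ratio was 0.11, the length ratio 0.98 and the ratio of totals -0.42, which give -0.45. For SLC3A2, with 23 transcripts, the gene length was 1570.4 nt in sh1088 and 1519.5 nt in sh1196, against 999.5 nt in the sh control, and 1666 nt in the overexpression library against 1311 nt in the pCDH control. Its FPKM and TPM kept the directions of its counts.

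Since SLC7A11 has only 2 transcripts in the files, the gene length gives RSEM's estimate of the share of each. The short transcript, the decay target, came to 19.7% of the SLC7A11 TPM in sh1088 and 66.2% in sh1196, against 1.29% in the sh control. It came to 25.2% in the overexpression library, against 66.0% in the pCDH control. In counts this is about 69.6 in sh1088 and 485 in sh1196, against 6.46 in the sh control, and 151 in the overexpression library against 712 in the pCDH control. It made up 1.89% and 13.3% of SLC7A11 counts in the knockdown libraries, against 0.102% in the sh control, and 2.58% in overexpression, against 13.1% in the pCDH control. By this estimate the short transcript was low in the sh control, intermediate in sh1088 and overexpression, and high in sh1196 and the pCDH control.

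The long transcript, which codes for the transporter, kept most of the counts in all 5 libraries: 373 CPM in sh1088 and 246 CPM in sh1196, against 777 CPM in the sh control, and 484 CPM in overexpression against 271 CPM in the pCDH control. Its FPKM was 32.0 in sh1088 and 31.8 in sh1196, against 56.7 in the sh control, and 56.7 in overexpression against 35.1 in the pCDH control. Its TPM was 14.1 in sh1088 and 15.6 in sh1196, against 17.3 in the sh control, and 30.5 in overexpression against 27.3 in the pCDH control. For the coding transcript alone, counts, FPKM and TPM therefore had the same direction in each arm, which they did not for the gene. The division between transcripts is RSEM's estimate from fragments with a mean length between 40.9 and 52.3 nt, and the files give it no error. All bases of the short transcript lie in the long transcript, so only fragments across a junction that it does not share are particular to it. Its other fragments fit both transcripts, so the estimate can also turn on how fragments were spread along the long transcript. Neither that spread nor the fragments across the junctions were examined, so a change in splicing was not tested.

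**Figure D3:**
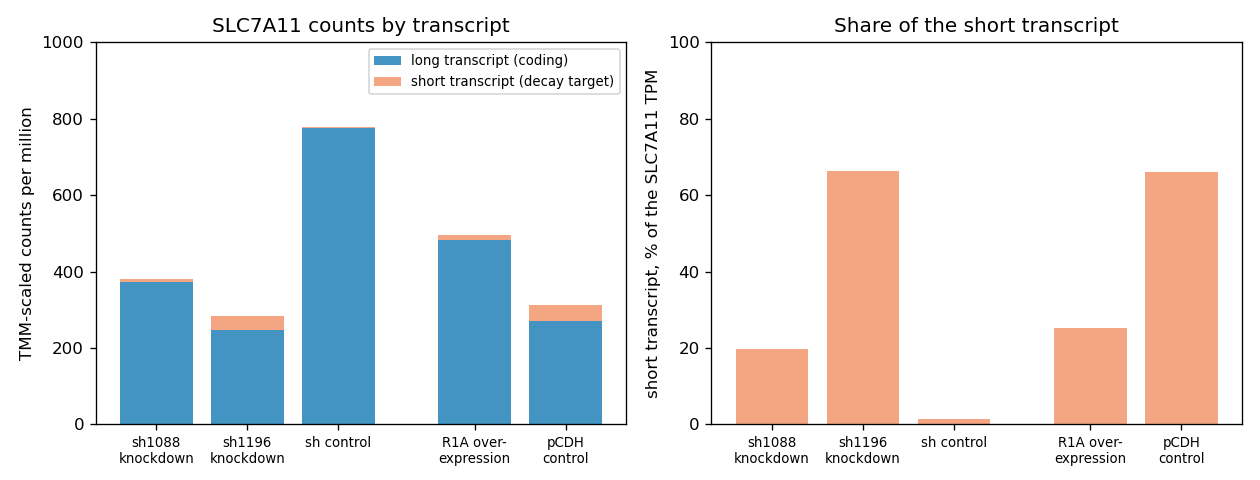
Left, TMM-scaled CPM of SLC7A11 divided between the long coding transcript and the short decay target, stacked from 0. Right, the estimated percentage of the SLC7A11 TPM on the short transcript, which is 66.2% in sh1196 and 66.0% in the pCDH control and at most 25.2% in the other libraries, with 1 library a bar.

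A shorter gene length was not limited to SLC7A11. Over 9579 protein-coding genes with several transcripts, the median log2 length ratio to the sh control was -0.05 in sh1088, -0.12 in sh1196 and -0.13 in the pCDH control. SLC7A11 stood at -0.27, -1.33 and -1.33, where 26.5%, 2.55% and 4.73% of these genes were lower. SLC3A2 went the other way, at 0.65, 0.60 and 0.39. The chains also lie at opposite ends in coding share: 15.6% of the long transcript is coding, lower than all but 5.81% of the genes measured in knockdown, while SLC3A2 has 85.2%, above 90.0% of them. The knockdown fold change of nuclear protein-coding genes and their coding share had Spearman rho = 0.26 across 9724 genes that share these libraries, with 0.12 for sh1088, 0.31 for sh1196, 0.23 for the pCDH control against the sh control and -0.06 for overexpression. Less the trend at its coding share, SLC7A11 stood at -0.91 in knockdown and 0.40 in overexpression, and SLC3A2 at 0.91 and -1.06. The part of coding share and of GC content in the chains' differences was not tested.

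**Figure D4:**
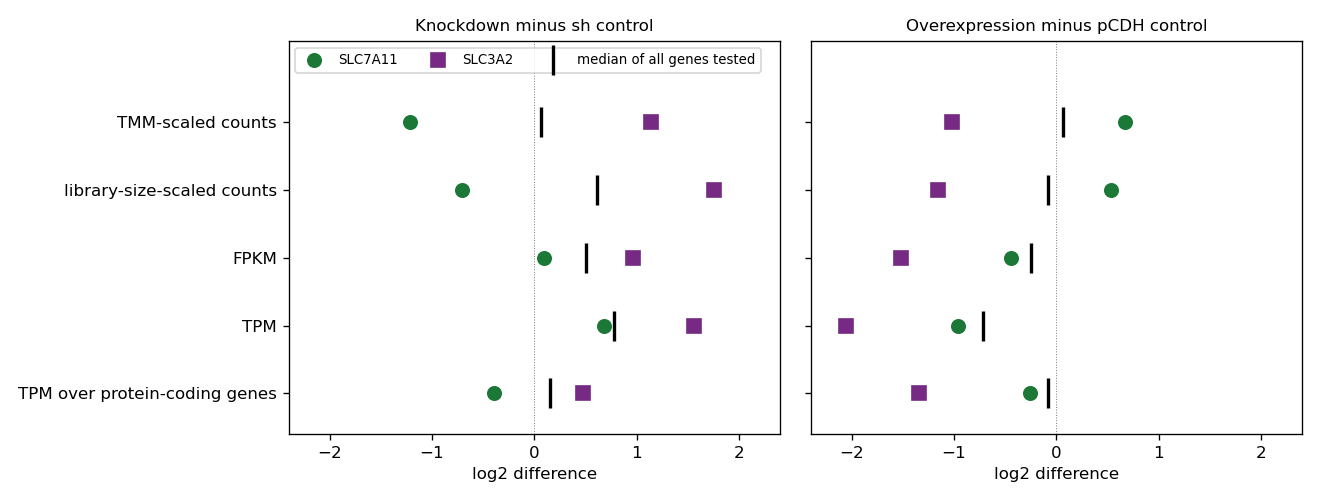
Log2 difference of each chain by unit, for knockdown minus the sh control (left, mean of 2 libraries) and overexpression minus the pCDH control (right, 1 library each), with the median of all genes tested in the same unit as a vertical tick. SLC3A2 keeps its side of 0 in every unit shown; SLC7A11 in knockdown is below the median of all genes in each, and in overexpression it is above 0 and above the median only by the 2 scalings of counts.

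The units also shift all genes. In knockdown the median log2 difference of all genes tested was 0.07 by TMM-scaled counts, 0.62 by library size, 0.51 by FPKM and 0.78 by TPM, the last 2 with a pseudocount of 1. SLC7A11 stood at -1.21, -0.71, 0.10 and 0.68 in the same order, below the median in each, and SLC3A2 at 1.14, 1.75, 0.96 and 1.56, above it in each. In overexpression the medians were 0.06, -0.08, -0.25 and -0.71. SLC7A11 stood at 0.67, 0.53, -0.44 and -0.97, above the median by counts and below it by FPKM and TPM, while SLC3A2 at -1.02, -1.16, -1.52 and -2.06 was below it in each.

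The partners of SLC3A2 were read next. Its other light chains carry neutral and basic amino acids, and SLC3A1 is the second heavy chain of the family, with its own light chains. Of 8 such genes 4 were measured in knockdown: 3 were above 0 and 1 below, 0 passed the test, and their median log2 fold change was 0.40. SLC7A7 had -1.07 (SE 1.69), a value that rests on sh1196: it was -0.15 in sh1088 and -3.97 in sh1196, at 22.4 CPM in sh1088 and 1.56 CPM in sh1196, against 25.5 CPM in the sh control. SLC3A1 had 0.84 (SE 1.40) and SLC7A6 0.76 (SE 0.51). The value of SLC3A1 rests on very few counts, at 0.62 CPM in sh1088 and 0.70 CPM in sh1196, against 0.37 CPM in the sh control. SLC7A5, the large neutral amino acid transporter LAT1, stood at 507 CPM in sh1088 and 983 CPM in sh1196, against 726 CPM in the sh control, on both sides of the control. It stood at 749 CPM in overexpression, against 1922 CPM in the pCDH control, at -1.36 on the log2 scale (-1.39 to -1.33), on the side of SLC3A2. SLC7A7 was lower there as well, at -1.01 (-1.23 to -0.80). Of 3 proteins known to bind SLC3A2, BSG, a partner of lactate transporters, had 1.04 (SE 0.57) in knockdown and -1.40 (-1.45 to -1.35) in overexpression, on the same sides as SLC3A2. ITGB1, the integrin beta chain that SLC3A2 binds, had 0.86 (SE 0.74) and 0.63 (0.61 to 0.66), and the galectin LGALS3 had 0.79 (0.63 to 0.95) in overexpression. None of the 3 passed in knockdown.

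From cystine to glutathione, 13 of 15 genes were measured in knockdown: 7 were above 0 and 6 below, 0 passed, and their median was 0.13, near the median of all genes. CBS was below the count filter, and GGT1 is on 2 gene identifiers and was left out. CHAC1, which breaks down glutathione, had -1.75 (SE 0.45, edgeR adjusted p = 0.828, unadjusted p = 0.00435), with 9.51 CPM in sh1088 and 7.89 CPM in sh1196, against 29.5 CPM in the sh control. GPX4, the glutathione-dependent lipid peroxidase, had -0.79 (SE 0.50), SLC25A39, which brings glutathione into mitochondria, -0.71 (SE 0.45), and the exporter ABCC1 0.82 (SE 0.60). In overexpression the median of 13 genes was 0.27, with 2 past 2-fold higher and 1 past 2-fold lower, where 14.8% of all genes were past 2-fold higher and 13.9% past 2-fold lower. TXN, the thioredoxin that reduces protein disulfides, had 1158 CPM in overexpression against 330.5 CPM in the pCDH control (log2 ratio 1.81, 1.76 to 1.85). GCLM, the modifier subunit of the enzyme that starts glutathione synthesis, had 161 CPM in overexpression against 64.9 CPM in the pCDH control (1.31, 1.20 to 1.42). CHAC1 was lower there too, at -1.20 (-1.68 to -0.74).

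Of 12 regulators of SLC7A11 or of its protein, 12 were measured: 6 were above 0 in knockdown and 6 below, 0 passed, and their median was -0.05. ATF4, an activator of SLC7A11, stood at 250.0 CPM in sh1088 and 130.0 CPM in sh1196, against 305 CPM in the sh control, and at 102 CPM in overexpression against 61.7 CPM in the pCDH control. ATF4 was thus on the same side as SLC7A11 in all 3 ratios, at -0.67 (SE 0.57) in knockdown and 0.73 (0.61 to 0.85) in overexpression. ATF3, a stress factor, had 1.11 (SE 0.58) in knockdown, and KEAP1 had 0.73 (SE 0.48). In overexpression DDIT3, a stress factor downstream of ATF4, stood at -2.10 (-2.44 to -1.78), and BACH1, a repressor of antioxidant genes, at 2.10 (1.83 to 2.36). RBMS1, itself among the 12, had -0.93, and the regulators with no knockdown value given above lay between -0.49 and 0.36.

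The profile over the 5 libraries was compared with that of 8570 genes with a mean of at least 10 CPM, by the root mean square difference of log2 CPM centred on each gene's mean. Among the genes nearest to SLC7A11 were HOXB7 at 0.13 and ZBTB44 and NFIA at 0.14 each. HOXB7 and NFIA are transcription factors. Nearest to SLC3A2 were GATD1 at 0.07, FBXO17 at 0.08, MFSD10 at 0.09, GALNT14 at 0.10 and CCNL2 at 0.11. The median over all genes was 0.65 for SLC7A11 and 0.68 for SLC3A2. The chains differed from each other by 1.08, which ranks SLC3A2 7937th in likeness to SLC7A11 and SLC7A11 7652nd in likeness to SLC3A2. Centred on its mean, SLC7A11 stood at -0.14 in sh1088 and -0.56 in sh1196, against 0.89 in the sh control, and at 0.24 in overexpression against -0.43 in the pCDH control. SLC3A2 stood at -0.091 in sh1088 and 0.60 in sh1196, against -0.83 in the sh control, and at -0.34 in overexpression against 0.67 in the pCDH control. The chains were thus on opposite sides of their means in 4 libraries and on the same side in sh1088.

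SLC7A11-AS1, a noncoding gene on the opposite strand that overlaps SLC7A11, had 0 counts in all 5 libraries, and no annotated gene overlaps SLC3A2. The SD of each chain's count over RSEM's posterior draws was at most 0.06, which is RSEM's own estimate of the error from dividing reads between genes.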

How the data were processed

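The 5 sample files hold, per the file headers, the authors' RSEM expected counts per gene with TPM, FPKM, length and effective length. The deposited comparison tables hold the authors' normalised mean (a signal per gene), log2 fold change and p-values, and their expected count columns equal the sample files (largest difference 0). Bowtie, DESeq2, RSEM 1.3.1 and STAR 2.4.2 are listed, without their roles, per the submitters' processing notes. The genome build is not given in the sources used here. Of 58929 gene identifiers 58656 matched GENCODE release 29 without their version.

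Counts were rounded and fitted over all genes with edgeR 4.0.16 in R 4.3.3 (TMM, filterByExpr, robust quasi-likelihood, Benjamini-Hochberg, threshold 0.05). The SE is the log2 fold change over the root of the F statistic. DESeq2 1.42.0 and limma 3.58.1 (voom) served as alternatives. Trends were lowess fits (statsmodels 0.14.6, fraction 0.3). Intervals are exact at 95% (SciPy 1.17.1). The edgeR test was tested on simulated data. Transcript shares of SLC7A11 solve the weighted gene length for the lengths of both transcripts.

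In each list the genes named are up to 4 with the largest knockdown fold change of the same sign in both hairpins and up to 2 with the largest overexpression ratio. Knockdown values of SLC7A5 and overexpression values of ATF4, CHAC1 and ITGB1 were chosen after they were seen. The members and lists were chosen with earlier results of these data known. Some genes that these rules name are not reported here.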

Additional observations from a re-analysis of the deposited data

How the results depend on the processing

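Against their own controls, both chains stayed above the adjusted threshold of 0.05 under each fit tried. Leaving out a hairpin gave SLC7A11 between -1.43 and -0.995, SLC3A2 between 0.78 and 1.46 and the log2 chain ratio between -2.88 and -1.77, and per RBMS1 level SLC7A11 between 0.82 and 1.07 and SLC3A2 between -1.22 and -0.91. Exchanging the controls reversed knockdown for SLC7A11 (0.11), SLC3A2 (-0.36) and the chain ratio (0.49), and overexpression for SLC7A11 (-0.65), SLC3A2 (0.49) and the chain ratio (-1.13). SLC7A11 was reversed in knockdown by TPM (0.68 with a pseudocount of 1, 0.70 with 0.1) and FPKM (0.10), and in overexpression by TPM (-0.97 and -0.98), FPKM (-0.44), TPM over nuclear protein-coding genes (-0.26) and the GC trend (-0.067).

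Other shifts kept the sign. TPM over nuclear protein-coding genes gave -0.39 for SLC7A11 and 0.47 for SLC3A2 in knockdown. In overexpression library size scaling gave 0.53 for SLC7A11 and -1.16 for SLC3A2, and the coding share trend gave 0.40 for SLC7A11 and -1.06 for SLC3A2. SLC3A2 in overexpression stood at -2.06 by TPM with either pseudocount, -1.52 by FPKM, -1.34 by TPM over protein-coding genes and -0.52 less the GC trend. The coding transcript of SLC7A11 gave 0.84 by counts, 0.69 by FPKM and 0.16 by TPM in overexpression, and -0.83 by FPKM and -0.22 by TPM in knockdown. The chain ratio by FPKM was -0.87 in knockdown and 1.08 in overexpression, and 1.85 in overexpression with the coding transcript. The number of genes called in knockdown was 0 and became 27 with library size scaling, 102 without the filter on low counts, 13 by DESeq2 and 4 over protein-coding genes only. Per RBMS1 level it was 0 and became 28, 89 and 56 under the first 3 of these, 28 without sh1088 and 22 without sh1196. The knockdown count was 93 against the pCDH control. The settings on transcripts, coding share and rescaled TPM were chosen after seeing the data. Apart from what the units' construction shows, the cause was not tested. No paired analysis was possible because the labels give no shared replicate numbers. There is 1 library in 3 of 4 groups, and each chain had 3639 or more counts in every library.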
